A study of Mus musculus with 9 samples.

Results

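Transcript levels of 10 genes of the Notch pathway were measured in mouse heart: the receptors Notch1, Notch2, Notch3 and Notch4, the ligands Dll4 and Jag1, and the target genes Hes1, Hey1, Hey2 and Heyl. The genes were chosen by name, and each of the 10 was found in a single row of the 29237 gene rows. The hearts came from wild-type C57BL/6 mice aged 8 to 12 weeks, in 3 groups of 3 libraries. The control group is the normal group of the design text, the DOX group is its doxorubicin model of dilated cardiomyopathy, and the TPTN group is the treated group. Doxorubicin is an anthracycline cancer drug known to injure heart muscle. The labels give no dose, route or time for either agent, do not say what the control mice received, and do not state whether the TPTN mice were also given doxorubicin. The labels number the samples of a group but name no animals, so the p-values measure the spread between these samples, which may be in part technical.

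Notch receptors are cell-surface proteins that are activated by Delta-like and Jagged ligands on a neighbouring cell. Ligand binding lets an ADAM protease and then the gamma-secretase complex cut the receptor, and the freed intracellular part enters the nucleus, binds the DNA-binding protein RBPJ and switches on genes such as those of the Hes and Hey repressors. In the heart the pathway is known for its part in the growth of arteries, in the coating of vessels by mural cells and in the formation of valves and chambers. Notch1, Notch4 and Dll4 are known from endothelial cells, Notch3 and Heyl from pericytes and smooth muscle, Hey1 from arterial endothelium and atrial muscle, and Hey2 from ventricular muscle.

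Levels are given as FPKM, the sequenced fragments of a gene divided by its transcript length and by the size of the library, so they can be set side by side between genes. An estimate from the lowest values of each library put the depth at 22800000 to 24400000 read pairs in the control libraries, 18300000 to 19200000 in DOX and 19200000 to 21300000 in TPTN. It is rough, since a tolerance of 0.05 made only 15.8 to 18.4% of low values a whole number of read pairs. Part of that share would be reached under any assumed depth, so the estimate does not settle whether the groups differ in depth. The 8 markers of ventricular muscle summed to 6822 to 7222 FPKM in control, 7759 to 8148 in DOX and 7339 to 7882 in TPTN libraries. DOX replicate 1 stood apart: its 6 atrial muscle markers summed to 2518 FPKM against 54.2 to 292 in the other 8 libraries, with Myl7 at 539 FPKM against 0 to 0.889. Small non-coding RNAs were most abundant in TPTN replicate 1 (a sum of 930 FPKM) and control replicate 3 (644), beside 126 to 435 in the other 7 libraries. For Hes1 and Notch3 the change is also given with some of these libraries left out. For Hey1 the range of the change with single libraries left out is given. Marker sums are given with all libraries only.

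All 10 genes were expressed at low to moderate levels, and each passed the minimum of 0.5 FPKM averaged over the 9 libraries that was required for testing. Averaged over all libraries, Notch3 was the most abundant at 4.57 FPKM, followed by Heyl at 4.48, Dll4 at 4.21, Hes1 at 4.15, Notch4 at 3.56, Hey1 at 3.30, Notch1 at 2.67, Jag1 at 1.86, Notch2 at 1.36 and Hey2 at 0.683. Notch3 lay at the 62.2nd percentile of the 12500 genes tested and Hey2 at the 6.86th, so Hey2 was measured close to the lower limit of the test. The upper part of this order was not separated: each of the genes from Notch3 down to Notch4 exceeded the next one in 6 of 9 libraries. Hey1 exceeded Notch1 in 8 of 9 libraries and Jag1 exceeded Notch2 in 8 of 9. Notch1 exceeded Jag1 in all 9, although their ranges of 2.00 to 3.17 and 1.54 to 2.18 FPKM overlapped. Notch2, at 1.02 to 1.72 FPKM, did not overlap with Hey2, at 0.521 to 0.851.

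The order at the top differed between the groups. In control hearts the 3 highest means were those of Notch3 (4.33 ± 0.297 FPKM, SD, n = 3), Notch4 (3.84 ± 0.289) and Dll4 (3.78 ± 0.433), and Hes1 was the sixth at 2.67 ± 0.285. In DOX hearts Hes1 came first at 5.27 ± 1.07 FPKM and Heyl next at 5.08 ± 0.295, a difference within the SD. In DOX replicate 1 Hes1 lay below Heyl, Dll4 and Notch3. In TPTN hearts Notch3 led again at 5.42 ± 0.501 FPKM, ahead of Heyl at 4.79 ± 0.407.

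**Figure D1:**
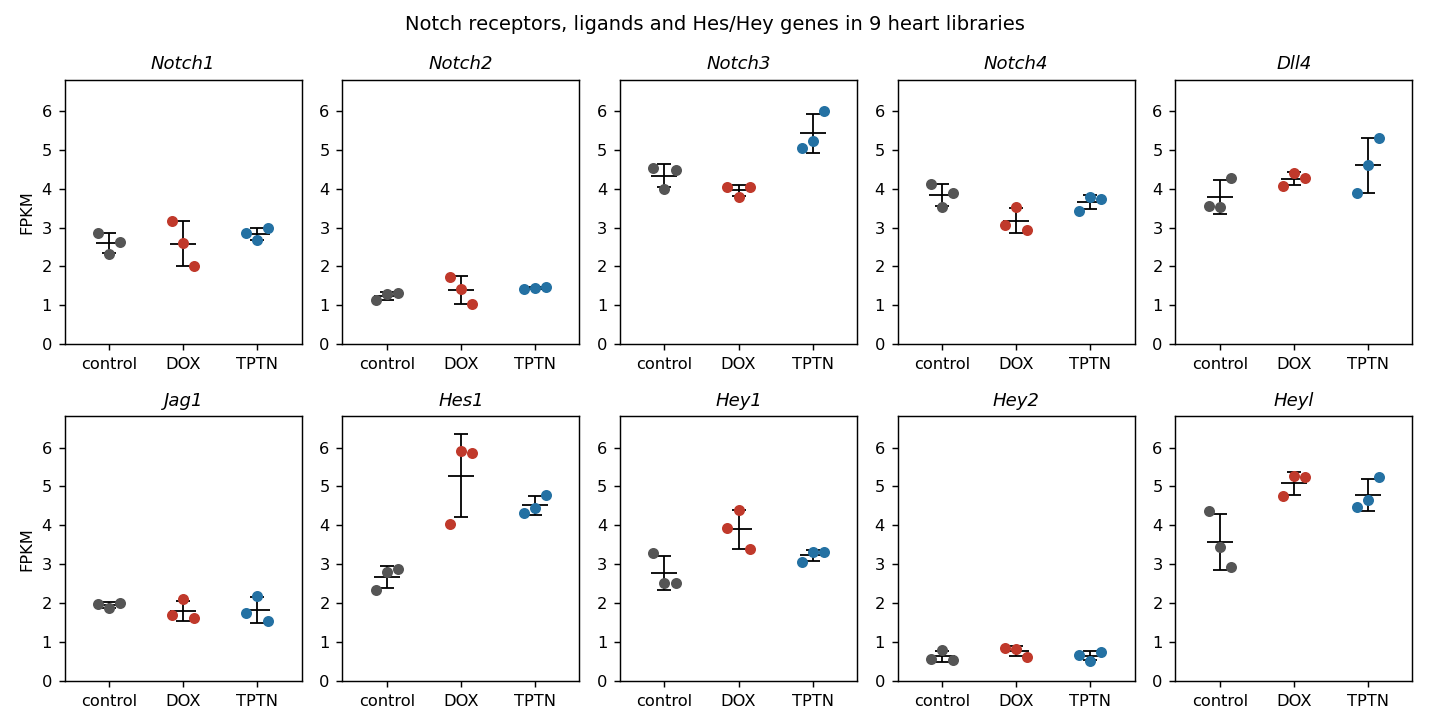
FPKM of the 10 genes in each library (points), with the mean and SD of the 3 libraries of a group (bars), for control, DOX and TPTN hearts. The DOX and TPTN points of Hes1 lie above all control points, and the TPTN points of Notch3 lie above those of both other groups.

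Between the doxorubicin model and normal hearts, the only gene of the 10 to reach an adjusted p under 0.05 was a target gene. Hes1, which encodes a basic helix-loop-helix repressor and is the classical direct target of activated Notch, stood at 2.35, 2.80 and 2.87 FPKM in the control libraries and at 4.04, 5.92 and 5.86 in the DOX libraries. Every DOX library lay above every control library, with DOX replicate 1 the lowest of the 3. Hes1 rose by 0.76 on the log2(FPKM + 1) scale (SE 0.12, 95% confidence interval 0.50 to 1.02, limma adjusted p = 0.017), and the ratio of mean FPKM was 1.97. In a bulk sample, more cells that express a gene and more RNA per cell cannot be told apart. Hes1 was the 44th gene by p among the 12500 tested, and the only one of the 10 to pass the threshold, an adjusted p under 0.05. Of all genes tested, 2.63% passed in this comparison, 2.23% as higher and 0.4% as lower, and a count of 1 in 10 does not set the 10 genes apart from that background.

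The related repressors Heyl and Hey1 had positive changes that missed the threshold. Heyl stood at 4.36, 3.44 and 2.92 FPKM in control hearts and at 4.74, 5.27 and 5.24 in DOX hearts (log2 change 0.42, SE 0.11, adjusted p = 0.0717). Hey1 stood at 3.28, 2.52 and 2.53 FPKM in control hearts and at 3.93, 4.40 and 3.39 in DOX hearts (log2 change 0.38, SE 0.10, adjusted p = 0.0777). For both genes the groups did not overlap, and control replicate 1 was the highest control library. Each passed in 1 of 22 other settings, the fit without that library (Heyl 0.54, adjusted p = 0.0313, and Hey1 0.47, adjusted p = 0.0457). Over the 22 settings the adjusted p reached 0.27 for Heyl and 0.272 for Hey1. With single libraries left out, DOX replicate 1 among them, the log2 change of Hey1 ran from 0.31 to 0.47. Hes1, Hey1 and Heyl are 3 genes of 10 with all DOX libraries above all control libraries, a pattern shown by 17.7% of the genes tested, while 22.8% were separated in either direction and 5.1% downward. Hey2, the least abundant of the family, stood at 0.552, 0.802 and 0.540 FPKM in control hearts and 0.851, 0.826 and 0.621 in DOX, with overlapping groups (log2 change 0.12, 95% confidence interval -0.09 to 0.32).

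Summed over the 4 target genes, the level was 10.5, 9.57 and 8.87 FPKM in control hearts, 13.6, 16.4 and 15.1 in DOX hearts and 12.5, 12.9 and 14.1 in TPTN. The control sums lay below those of all other libraries. The sum was not tested, since its genes were chosen with earlier results known.

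Of the receptors and ligands none passed in DOX against control. Notch4, an endothelial receptor, stood at 4.11, 3.54 and 3.87 FPKM in control hearts and at 3.08, 3.54 and 2.93 in DOX, where DOX replicate 2 and control replicate 2 nearly coincided (log2 change -0.21, SE 0.08, adjusted p = 0.19). Notch3 had a log2 change of -0.10 (4.54, 3.99 and 4.47 FPKM to 4.05, 3.80 and 4.03, adjusted p = 0.543). For Notch3, DOX replicates 1 and 3 lay inside the control range of 3.99 to 4.54 FPKM.

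Notch1 and Notch2 were more variable in DOX than in the other groups. Notch1, the receptor of endothelium and developing muscle, was at 2.85, 2.33 and 2.62 FPKM in control hearts and 3.17, 2.59 and 2.00 in DOX, and Notch2 at 1.13, 1.30 and 1.31 against 1.72, 1.43 and 1.02. In both genes DOX replicate 1 was the highest and DOX replicate 3 the lowest of the 9 libraries. The coefficient of variation in DOX was 22.7% for Notch1 and 25.3% for Notch2, against 9.99% and 8.16% in control and 5.43% and 1.37% in TPTN. The group means were alike, with log2 changes of -0.01 (95% confidence interval -0.26 to 0.23) and 0.08 (-0.14 to 0.30). The sign of the Notch2 value depended on DOX replicate 1, without which it was -0.02.

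Among the ligands, Dll4, which guides arterial identity and vessel sprouting, was at 3.55, 3.52 and 4.28 FPKM in control hearts and 4.08, 4.41 and 4.28 in DOX hearts (log2 change 0.14, 95% confidence interval -0.08 to 0.36, adjusted p = 0.517). Jag1, a ligand that endothelium presents to mural cells, was at 1.98, 1.86 and 1.99 FPKM in control hearts and 1.70, 2.10 and 1.62 in DOX hearts (log2 change -0.07, 95% confidence interval -0.29 to 0.14, adjusted p = 0.75). Both ligands overlapped between the groups. Over the 10 genes the median log2 change was 0.10, with 1 gene higher, 0 lower and 6 positive values, beside a median of 0.04 over all genes tested. Limma gave 4 of the 10 an unadjusted p under 0.05, which were Hes1, Heyl, Hey1 and Notch4, beside 18.0% of all genes tested.

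**Figure D2:**
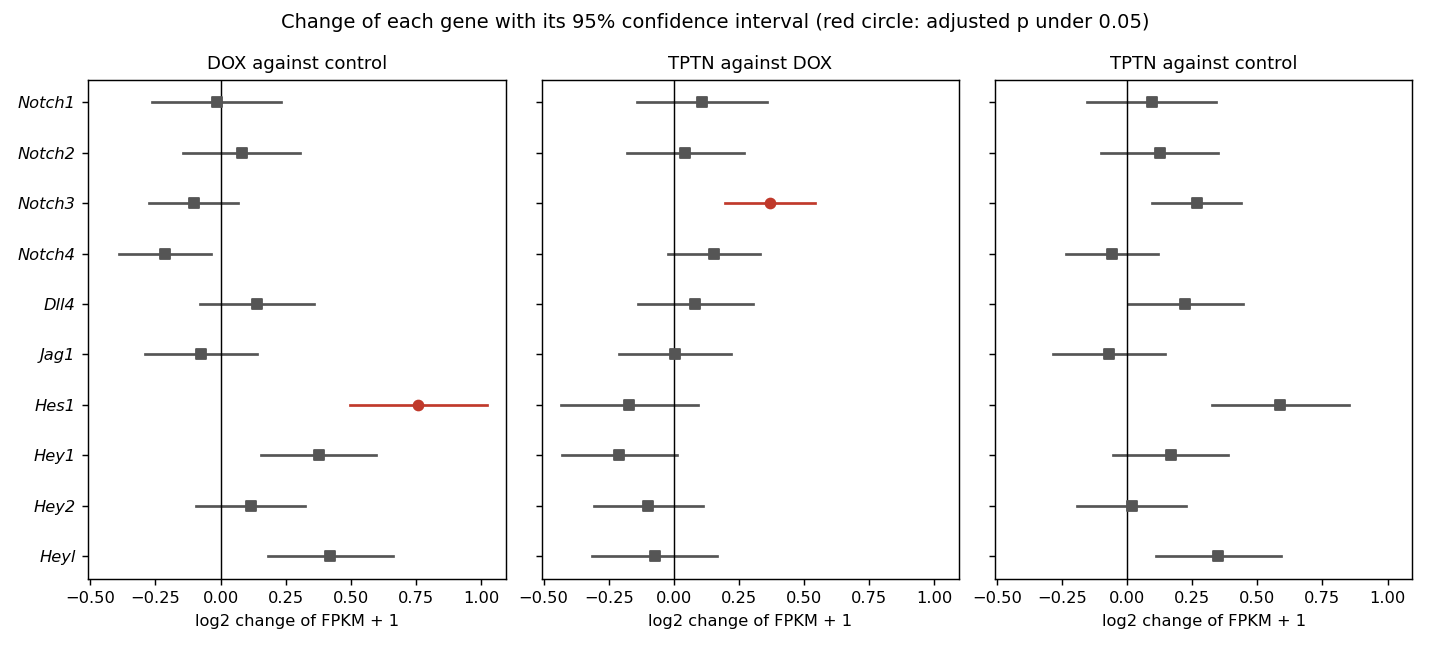
Log2 change of FPKM + 1 for each gene in the 3 comparisons, with the 95% confidence interval from limma as a line; red circles mark an adjusted p under 0.05. Hes1 in DOX against control, at 0.76, and Notch3 in TPTN against DOX, at 0.37, are the marked genes.

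Between treated and model hearts the only gene of the 10 to pass the threshold was a receptor. Notch3, whose loss weakens the smooth muscle of small arteries, stood at 4.05, 3.80 and 4.03 FPKM in DOX and at 5.04, 5.23 and 5.99 in TPTN. All TPTN libraries lay above all DOX libraries and also above the highest control library at 4.54. Notch3 rose by 0.37 (SE 0.08, 95% confidence interval 0.20 to 0.54, limma adjusted p = 0.0351), with a ratio of mean FPKM of 1.37. It was the 230th gene by p, and 3.26% of all genes passed in this comparison, 0.792% as higher and 2.46% as lower. The separation of all TPTN from all DOX libraries was shared by 24.5% of the genes tested, 10.4% upward. An antisense transcript, Gm17276, shares 488 exon bases with Notch3 and stood at 0.153 to 0.358 FPKM in control hearts, 0.207 to 0.226 in DOX and 0.326 to 0.449 in TPTN. The libraries mark strand, but whether counting used it is not given in the sources used here. The part of Gm17276 in the Notch3 value was not tested.

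The Notch3 call was near the threshold. It was lost without any 1 of the 3 TPTN libraries (adjusted p = 0.0732, 0.0685 and 0.103 without replicates 1, 2 and 3), without DOX replicate 2 (0.107) or 3 (0.0789) and without control replicate 3 (0.0557). Its log2 change stayed between 0.31 and 0.48 in all 22 other settings tried, while its adjusted p ranged from 0.0124 to 0.158. Without control replicate 3 and TPTN replicate 1 together it was 0.41 (adjusted p = 0.119).

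The promoter of Notch3 (RefSeq, GRCm38.p6, minus strand, chr17:32166841-32167140) is shown because Notch3 was the receptor that passed the threshold in TPTN against DOX. That of Hey2 (minus strand, chr10:30842734-30843033) is shown because it alone of the 7 promoters found held the RBPJ motif. Capitals mark matches to GTGGGAA, the RBPJ motif, and to CACNAG, the N-box bound by Hes proteins, on either strand. The window runs from 250 bases before the start to 50 after it.
Notch3: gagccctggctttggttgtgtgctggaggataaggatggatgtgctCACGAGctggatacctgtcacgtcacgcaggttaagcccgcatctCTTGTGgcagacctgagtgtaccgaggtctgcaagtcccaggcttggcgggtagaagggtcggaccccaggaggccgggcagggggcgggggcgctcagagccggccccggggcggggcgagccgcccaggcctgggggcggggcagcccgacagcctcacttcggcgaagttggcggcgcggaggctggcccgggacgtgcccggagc
Hey2: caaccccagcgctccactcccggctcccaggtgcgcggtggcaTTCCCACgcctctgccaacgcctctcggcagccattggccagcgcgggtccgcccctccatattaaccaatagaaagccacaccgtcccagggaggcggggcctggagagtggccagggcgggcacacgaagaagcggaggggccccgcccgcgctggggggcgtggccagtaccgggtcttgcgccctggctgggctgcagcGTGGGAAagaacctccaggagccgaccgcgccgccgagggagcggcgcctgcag
The Notch3 window held 2 N-boxes and no RBPJ motif, and the Hey2 window held 2 RBPJ motifs, 1 on the opposite strand, read here as TTCCCAC at -207 to -201, and GTGGGAA at -4 to 2, with the start base counted as 0. It held no N-box. The E-box CACGTG was in neither. Of 32851 RefSeq promoter windows of 300 bases, 6.38% held GTGGGAA, 42.5% held CACNAG and 7.15% held CACGTG. These motifs do not overlap each other in the windows shown. Promoters were matched by symbol for 7 of the 10 genes, and not for Hes1, Hey1 and Heyl. In the other 5 windows, Notch1 held 3 N-boxes, a pair of them overlapping, Notch2 and Dll4 held 1 each, and Notch4 and Jag1 held none of the 3 motifs. The Notch1 window lies inside the gene as annotated in GENCODE M21. A match of letters is a description and no evidence of binding.

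In TPTN hearts the means of Hes1 and Heyl lay nearer to DOX than to control, and those of Hey1 and Hey2 nearer to control. Hes1 stood at 4.32, 4.43 and 4.79 FPKM in TPTN, within the DOX range of 4.04 to 5.92. Its log2 change against DOX was -0.17 (95% confidence interval -0.44 to 0.09, adjusted p = 0.449). Without DOX replicate 1, the library with atrial markers, the value was -0.32 (adjusted p = 0.0625). Heyl, at 4.48, 4.64 and 5.25 FPKM in TPTN, overlapped with DOX (log2 change -0.07, 95% confidence interval -0.31 to 0.17, adjusted p = 0.751).

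Hey1 was the only one of the 10 with all TPTN libraries below all DOX libraries, at 3.05, 3.32 and 3.30 FPKM against 3.93, 4.40 and 3.39. The difference missed the threshold (log2 change -0.21, SE 0.10, adjusted p = 0.264), and 14.1% of the genes tested showed such a separation downward. With single libraries left out, DOX replicate 1 among them, the log2 change of Hey1 ran from -0.29 to -0.14. Hey2 had a log2 change of -0.10 (adjusted p = 0.602). Notch4 was at 3.44, 3.78 and 3.73 FPKM in TPTN (log2 change against DOX 0.16, adjusted p = 0.303), Notch1 at 2.85, 2.67 and 2.98 (0.11, adjusted p = 0.633) and Notch2 at 1.43, 1.44 and 1.47 (0.04, adjusted p = 0.849). The 3 TPTN libraries of Notch2 were the tightest triplet of the set. Dll4, at 3.89, 4.59 and 5.30 FPKM, and Jag1, at 1.74, 2.18 and 1.54, had log2 changes of 0.08 and 0.00 (95% confidence intervals -0.14 to 0.30 and -0.21 to 0.22). Of the 10, 1 was higher and 0 lower, with a median of 0.02 beside -0.01 over all genes. Limma gave 1 of the 10, Notch3, an unadjusted p under 0.05, beside 20.6% of all genes tested. Without overlap between TPTN and DOX there were 1 of the 10 upward and 1 downward, beside 24.5% of all genes in either direction.

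The comparison of TPTN with control shares its libraries with both comparisons above. None of the 10 passed the threshold in limma, and 0.72% of all genes passed, 0.336% as higher and 0.384% as lower. At an unadjusted p under 0.05 there were 4 of the 10 (Hes1, Notch3, Heyl and Dll4), beside 13.1% of all genes. Hes1 came closest, with every TPTN library above every control library: its log2 change was 0.59 (SE 0.12, 95% confidence interval 0.32 to 0.85, adjusted p = 0.0549) and the ratio of mean FPKM 1.69. It passed in 6 of the 22 other settings, among them the fit of only the groups compared (adjusted p = 0.031) and the fit without DOX replicate 1 (0.0158). Its adjusted p ranged from 0.0158 to 0.292 over these settings and its log2 change from 0.52 to 0.74.

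Heyl (log2 change 0.35, adjusted p = 0.19) and Notch3 (0.27, adjusted p = 0.167) also had no overlap between TPTN and control, as did Notch2 (0.13, adjusted p = 0.661). With Hes1 these are 4 of 10 genes, beside 15.2% of all genes separated upward, 6.03% downward and 21.3% in either direction. Dll4 had a log2 change of 0.22 (adjusted p = 0.376) and Hey1 of 0.17 (adjusted p = 0.529), both with overlapping groups. Notch4 (-0.06), Jag1 (-0.07), Notch1 (0.09) and Hey2 (0.02) had intervals that span 0. The median over the 10 was 0.15, beside 0.04 over all genes. The 4 receptors summed to 11.2 to 12.6 FPKM in control hearts, 9.98 to 12.0 in DOX and 12.8 to 14.2 in TPTN. The TPTN sums lay above the others, though the lowest of them, 12.8, was close to the highest control sum, 12.6. This sum includes Notch3, which was itself separated upward. The 2 ligands summed to 5.38 to 6.27, 5.78 to 6.51 and 5.64 to 6.84, and neither sum was tested.

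In the authors' deposited table, whose header does not say which groups its p-values compare, Hes1 (q = 5.37e-05), Notch3 (q = 0.00119), Heyl (q = 0.00889) and Hey1 (q = 0.0476) are marked as significant. The other 6 genes are not, with Notch4 (q = 0.289) and Dll4 (q = 0.308) next.

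The call of Hes1 in DOX against control was as large without the library that held atrial markers: its log2 change was 0.91 without DOX replicate 1 (adjusted p = 0.0175). It was lost without control replicate 2 (adjusted p = 0.0579), control replicate 3 (0.0555), DOX replicate 2 (0.0611) or DOX replicate 3 (0.0527), with log2 changes of 0.79, 0.80, 0.68 and 0.69. Without control replicate 3 and TPTN replicate 1 together, the libraries with the most small RNA, it was 0.80 (adjusted p = 0.063), and without a filter on low values, which adds genes to the test, the adjusted p was 0.124. Over the 22 settings the log2 change ranged from 0.63 to 0.94 and the call held in 16.

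**Figure D3:**
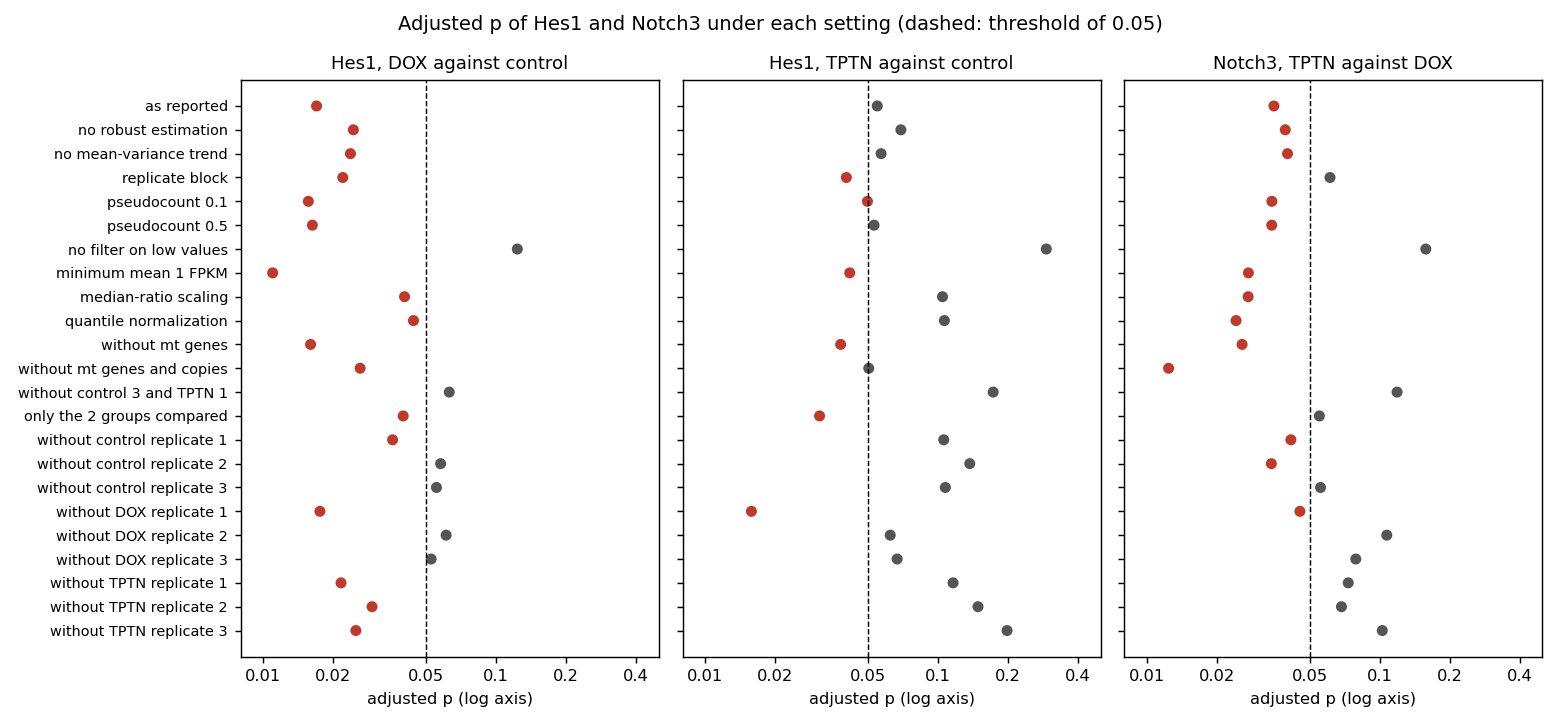
Adjusted p (log axis) of Hes1 in DOX against control, Hes1 in TPTN against control and Notch3 in TPTN against DOX as reported and under each of the 22 other settings; red points lie under 0.05. Hes1 in DOX against control passed in 16 settings, Hes1 in TPTN against control in 6 and Notch3 in 12.

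Of 59 other genes, of the pathway and of the Id family, 58 were found and 45 passed the filter on low values. In DOX against control 1 of the 45, Id3, was higher and 0 lower (median 0.05). In TPTN against DOX 0 were higher and 2 lower, Psenen and Id1 (median -0.02). In TPTN against control 0 passed in limma, with 5 at an unadjusted p under 0.05 (median 0.07). Of all genes tested, 2.63, 3.26 and 0.72% passed in these comparisons. In TPTN against control 13.1% of them had an unadjusted p under 0.05. Ligands came first: Jag2, at 3.58 to 4.74 FPKM, was as abundant as Dll4, and Dll1 stood at 0.827 to 1.18, with 0 of these 2 called. Dlk1, Dlk2 and Dner lay below the filter. Of the ubiquitin ligases that activate ligands, 0 of 3 passed, with Mib1 at 0.19 in TPTN against control (adjusted p = 0.418).

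Of 6 genes of receptor glycosylation and maturation 0 passed. Lfng, a glycosyltransferase that tunes which ligand a receptor answers, stood at 1.05, 1.46 and 1.54 FPKM in control hearts, 2.21, 1.94 and 1.84 in DOX and 1.90, 1.65 and 2.03 in TPTN. Its DOX and TPTN libraries all lay above control (log2 change in DOX 0.35, adjusted p = 0.0868). Of 8 genes of receptor cleavage, 1 passed: Psenen, a subunit of gamma-secretase, stood at 15.1, 15.5 and 15.3 FPKM in DOX and 10.4, 12.6 and 12.3 in TPTN. It fell by 0.36 (SE 0.07, adjusted p = 0.033), and the TPTN libraries also lay below the control libraries at 13.3, 13.3 and 13.8. Without TPTN replicate 1, its lowest library, the value was -0.28 (adjusted p = 0.0893), and the call held in 11 of 22 settings. Psen2, the catalytic subunit presenilin 2, had a change of -0.23 (adjusted p = 0.137), and the sheddase Adam17 one of 0.27 (adjusted p = 0.166).

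Of 9 genes of receptor turnover and inhibition 0 passed in any comparison in limma. Nrarp, a feedback inhibitor that is itself a Notch target, was at 3.54, 3.01 and 2.83 FPKM in control hearts and 3.45, 4.13 and 3.84 in DOX, overlapping through control replicate 1 (log2 change 0.22, adjusted p = 0.203). Of 13 genes of the nuclear complex and its corepressors 0 passed. Rbpj, the DNA-binding partner of the cut receptor, was at 1.46 to 1.63 FPKM in control hearts, 1.36 to 1.82 in DOX and 1.83 to 2.05 in TPTN (log2 change in TPTN against control 0.21, adjusted p = 0.312).

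The list of other Hes genes and Id genes, which encode dominant-negative helix-loop-helix proteins, had 4 of 10 members above the filter, and 2 of these were called. Id3 stood at 14.1, 13.1 and 13.7 FPKM in control hearts and 19.8, 19.0 and 16.2 in DOX. It rose by 0.39 (SE 0.09, adjusted p = 0.0423), a call that held in 5 of 22 settings and was lost without DOX replicate 1 (0.34, adjusted p = 0.0864). Id1 stood at 20.5 to 24.0 FPKM in DOX and 15.0 to 17.9 in TPTN. It fell by 0.43 (SE 0.10, adjusted p = 0.0433), a call that held in 6 of 22 settings. Id2 was at 1.96 to 2.04 FPKM in control hearts and at 5.67, 2.52 and 2.74 in DOX, the first of these being the library with atrial markers (log2 change 0.57, adjusted p = 0.193). Hes6 had a change of 0.26 in DOX hearts (adjusted p = 0.265), and Hes2, Hes3, Hes5, Hes7, Helt and Id4 lay below the filter.

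**Figure D4:**
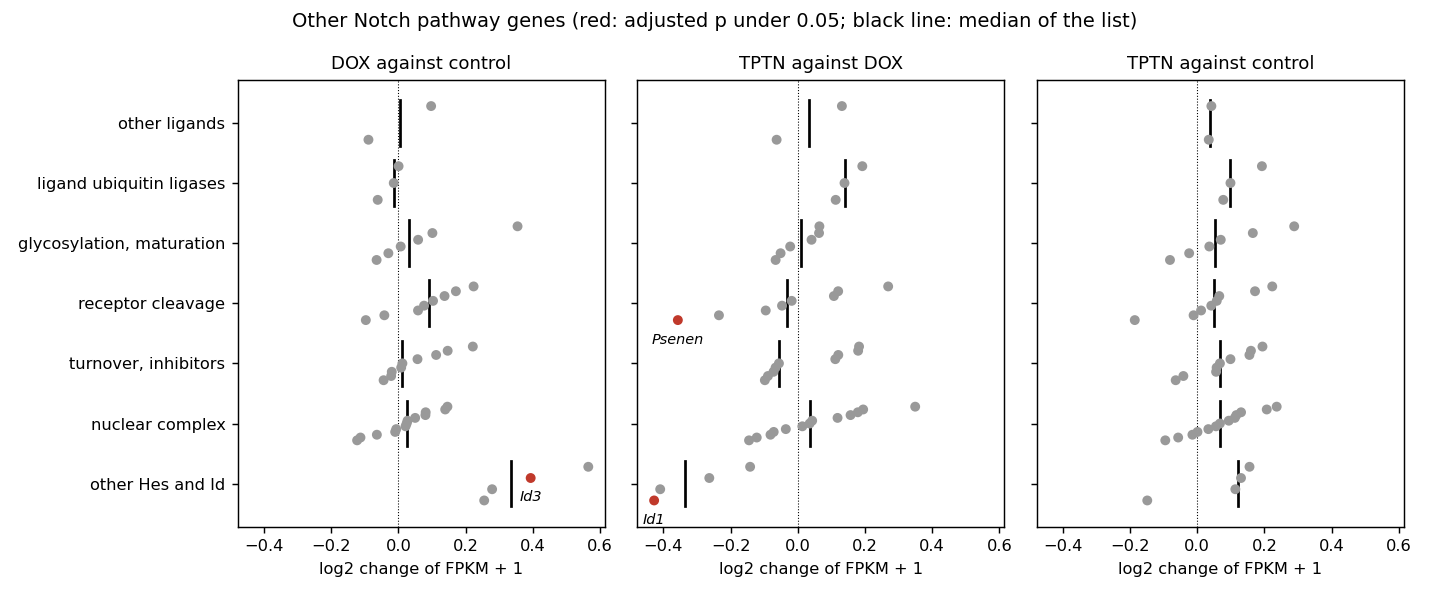
Log2 change of FPKM + 1 of 45 other genes, of the Notch pathway and of the Id family, by role in the 3 comparisons (points). The median of each role is a black line, and genes with an adjusted p under 0.05 are in red. Id3 in DOX against control and Psenen and Id1 in TPTN against DOX are the red points.

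Markers of the cells known to express these genes were read from the same fit. The 12 endothelial markers summed to 166 to 181 FPKM in control hearts, 171 to 183 in DOX and 165 to 192 in TPTN, and 0 of 12 passed in DOX against control in limma, with 1 at an unadjusted p under 0.05. In TPTN 1 of 12 was higher, against DOX and against control, namely Kdr, the main receptor for VEGF (log2 changes 0.48 and 0.66, adjusted p = 0.0303 and 0.0161). The 5 arterial markers other than Hey1 and Dll4 summed to 11.1 to 12.6 FPKM in control hearts, 13.6 to 14.7 in DOX and 11.7 to 14.1 in TPTN. The DOX sums lay above the control sums as those of the Hes and Hey genes did, and the median change was 0.22, with 5 of 5 positive. The highest sum, 14.7, was that of DOX replicate 1, the library with atrial markers. In it Gja5, 1 of the 5, stood at 3.01 FPKM against 1.14 and 1.05 in DOX replicates 2 and 3. DOX replicates 2 and 3 summed to 13.7 and 13.6 FPKM with Gja5 included, beside the 11.1 to 12.6 of control. No sum without Gja5 was taken. In limma 0 of the 5 passed, and 0 had an unadjusted p under 0.05 in DOX against control. Ventricular muscle markers moved as well: in DOX against control 6 of 8 had an unadjusted p under 0.05, Myl2 rose by 0.38 (adjusted p = 0.0339) and Ryr2 fell by 0.56 (adjusted p = 0.0327). Of all genes tested, 18.0% had an unadjusted p under 0.05 in that comparison. In TPTN against DOX 6 of the 8 ventricular markers likewise had an unadjusted p under 0.05, beside 20.6% of all genes. There 4 of the 8 values were positive and 0 passed the threshold. In TPTN against control 2 of the 8 had an unadjusted p under 0.05, beside 13.1% of all genes. The part of arterial cells and of ventricular muscle in the target gene values was not tested.

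The 10 pericyte and smooth muscle markers, the cells of Notch3 and Heyl, summed to 151 to 203 FPKM in control hearts, 162 to 202 in DOX and 185 to 223 in TPTN. None of the 10 passed in limma in any comparison, but single markers were separated, in both directions. In DOX against control 8 of 10 values were positive and 3 had an unadjusted p under 0.05, all of them contractile genes of smooth muscle. Tagln stood at 4.45 to 8.32 FPKM in control libraries against 11.2 to 15.6 in DOX (adjusted p = 0.0855), Myh11 at 2.42 to 3.33 against 3.93 to 4.27 (0.0532) and Cnn1 at 0.281 to 0.513 against 0.535 to 0.992 (0.189), each without overlap, as for Heyl. Over all genes tested, 17.7% were separated upward in this way and 18.0% had an unadjusted p under 0.05. In TPTN against DOX 3 again had an unadjusted p under 0.05, beside 20.6% of all genes tested. There 10.4% of all genes were separated upward and 14.1% downward. Abcc9, a pericyte channel subunit, stood at 10.6 to 15.8 FPKM in DOX against 17.8 to 20.4 in TPTN, separated upward as Notch3 was (log2 change 0.52, adjusted p = 0.104), while Tagln (-0.72, adjusted p = 0.144) and Cnn1 (-0.31, adjusted p = 0.201) had negative values. In TPTN against control 10 of 10 values of these markers were positive, with a median of 0.17 beside 0.04 over all genes. Of these 10, 1 had an unadjusted p under 0.05, beside 13.1% of all genes tested. The part of mural cells in the Heyl and Notch3 values was not tested. The 4 endocardial markers summed to 9.58 to 10.4 FPKM in control hearts, 7.97 to 8.97 in TPTN and 10.3 to 28.3 in DOX, highest in DOX replicate 1, where Hes1 and Heyl were the lowest of their group. Fibroblast markers summed to 76.5 to 79.6, 75.8 to 109 and 76.7 to 84.7 FPKM, macrophage markers to 56.3 to 66.7, 50.2 to 68.0 and 58.9 to 62.4, and venous and lymphatic markers to 26.5 to 31.3, 23.5 to 35.0 and 28.9 to 32.8 in control, DOX and TPTN. Of the 7 venous and lymphatic markers 1 passed in TPTN against DOX: Nrp2, a co-receptor for VEGF, rose by 0.57 (adjusted p = 0.028), with Flt4 next (log2 change 0.25, adjusted p = 0.0677). Markers of lymphocytes summed to 0.047 to 0.463 FPKM over the 9 libraries, those of adipocytes to 0.0067 to 1.63 and those of Schwann and nerve cells to 0.562 to 1.74. Neutrophil markers summed to 4.07 to 10.1 FPKM in control hearts, 1.31 to 3.87 in DOX and 0.451 to 0.538 in TPTN, and erythroid genes to 396 to 944, 331 to 971 and 447 to 603.

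The genes whose course over the 9 libraries was closest to that of the called members were found by the mean absolute difference of log2(FPKM + 1), each gene centred on its own mean, among 10985 genes with a symbol. Closest to Notch3 were Trp53i11 (difference 0.03), Luzp1 (0.05) and Zfand2a (0.05), where Notch3 itself departed from its mean by 0.14 on average. Trp53i11 stood at 3.85 to 4.41 FPKM in control hearts, 3.65 to 4.31 in DOX and 5.11 to 5.73 in TPTN. Among the genes closest to Hes1 were Klf10, which encodes a zinc finger factor induced by TGF-beta, and Galk1, which encodes galactokinase, each with a difference of 0.14 where Hes1 departed by 0.30. This is a description of 9 libraries in which genes share the same library scaling.

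The genes lie on 6 chromosomes of GRCm38 in GENCODE M21. Hes1 (ENSMUSG00000022528) lies on chromosome 16 from 30064384 to 30067796 and Notch3 (ENSMUSG00000038146) on chromosome 17 from 32120820 to 32166852, the chromosome that also holds Notch4 (ENSMUSG00000015468, 34564268 to 34588503). Chromosome 2 holds Notch1 (ENSMUSG00000026923, 26457903 to 26516663), Dll4 (ENSMUSG00000027314, 119325784 to 119335962) and Jag1 (ENSMUSG00000027276, 137081456 to 137116644). Hey1 (ENSMUSG00000040289, 8663359 to 8667256) and Notch2 (ENSMUSG00000027878, 98013527 to 98150361) lie on chromosome 3, Heyl (ENSMUSG00000032744, 123233556 to 123249875) on chromosome 4 and Hey2 (ENSMUSG00000019789, 30832359 to 30842801) on chromosome 10. Hes1, Hey1, Hey2, Heyl and Jag1 overlap no other annotated gene. Dll4 shares 214 exon bases with the opposite-strand transcript Gm14207, at 0.265 to 0.815 FPKM, and Notch1 1068 with 0610009E02Rik, at 0.0963 to 0.283.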

How the data were processed

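Polyadenylated RNA from 9 heart libraries was sequenced from strand-marked libraries, per the labels' protocols. The authors' deposited table holds FPKM per gene, and p-values and q-values whose groups its header does not name. Per the submitters' processing notes, cutadapt 1.9, HISAT2 2.0.4, StringTie 1.3.4d, DESeq2, edgeR and GRCm38 were used, with no role given. No read counts were used here.

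Log2(FPKM + 1) of the 12500 genes with a mean of at least 0.5 FPKM was fitted with limma 3.58.1 (R 4.3.3), with a mean per group, a trend and robust moderation, on 6 residual degrees of freedom. Benjamini-Hochberg adjustment ran over all genes tested. This scale understates changes of low genes. An exact permutation test of 3 against 3 libraries cannot go below 0.1, so none was used. The procedure was tested on simulated data with independent noise in each library. That test did not cover libraries that deviate together or shifts of scaling, both of which are described below. The members, the pathway and marker lists and the settings were chosen with earlier results of these data known. Beyond the members, genes named are list members that passed or had the smallest p of their list, and those closest in course to a called member. The opposite-strand genes Gm17276, Gm14207 and 0610009E02Rik were added for their overlap and Myl7 after its values were seen. Positions and promoters come from GENCODE M21 and RefSeq. Some results of the named-gene rule are not reported here.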

Additional observations from a re-analysis of the deposited data

How the results depend on the processing

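The 10 genes were refitted under 22 other settings, 2 of them chosen after seeing the data: a scaling that leaves out mitochondrial genes with their nuclear copies (scaling M below), and the joint removal of control replicate 3 with TPTN replicate 1. No count test was run, since the table holds FPKM, and Hey2 has no value at a minimum mean of 1 FPKM. In DOX against control 1 of the 10 was called as reported. That number was 0 with no filter on low values, 0 under the joint removal and 2 under scaling M, where Notch4 passed as lower (-0.34, adjusted p = 0.0492), and it ranged from 0 to 3 when single libraries were left out. Scaling M moved the median of all genes by -0.12, and relative to the median Hes1 stood at 0.70 in place of 0.72 and Notch4 at -0.27 in place of -0.26. In TPTN against DOX, with 1 called as reported, the number was 0 with the replicate block, with no filter, with only the groups compared and under the joint removal, and 0 to 1 when single libraries were left out. In TPTN against control, with 0 called as reported, Hes1 made it 1 with the replicate block (adjusted p = 0.0404), a pseudocount of 0.1, a minimum mean of 1 FPKM, mitochondrial genes left out of the scaling, and only the groups compared. It was 0 to 1 when single libraries were left out. Notch3 in TPTN against DOX had an adjusted p of 0.0611 with the replicate block. Same-numbered libraries did not deviate together (r from -0.26 to 0.02 across genes, and 0 of 9 libraries correlated best with their own number), so this block rests on a shared number alone. Of the 18 pairs with different numbers 3 were over 0.1, each of a control and a TPTN library: control replicate 3 with TPTN replicate 1 (0.40), 1 with 2 (0.29) and 2 with 3 (0.23).

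The sign turned in 17 values, none of a gene called as reported (adjusted p from 0.633 to 0.984). When single libraries were left out, the log2 change in DOX against control ran from -0.13 to 0.11 for Notch1 and from -0.018 to 0.20 for Notch2. In TPTN against DOX it ran from -0.015 to 0.22 for Notch1, -0.071 to 0.14 for Notch2, -0.0062 to 0.18 for Dll4 and -0.084 to 0.078 for Jag1. In TPTN against control it ran from -0.16 to 0.0031 for Jag1 and -0.027 to 0.091 for Hey2. Scaling M gave -0.012 for Notch2 in DOX against control and 0.039 for Heyl in TPTN against DOX, and Hey2 in TPTN against control was -0.0022 under median ratios and -0.034 under the joint removal. The cause was not tested.

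Over all genes the numbers called higher and lower moved with the scaling. DOX against control had 279 higher and 50 lower, 117 and 64 under median ratios, 76 and 67 under quantile normalization and 61 and 208 under scaling M. TPTN against DOX had 99 and 308, then 148 and 285, 173 and 163, and 542 and 129, and 187 and 170 with mitochondrial genes alone left out. TPTN against control had 42 and 48, and 90 and 55 in the last of these. The total called ranged from 2 to 393, 2 to 671 and 0 to 146 over the settings. Depth is known only roughly, and Hey2, at under 1 FPKM, is the least abundant of the 10.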

Other observations

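Ratios between members within a library do not depend on how the library was scaled. The ratio of Hes1 to Hey1 in FPKM was 0.715, 1.11 and 1.14 in control hearts, 1.03, 1.35 and 1.73 in DOX and 1.41, 1.33 and 1.45 in TPTN, so the TPTN libraries lay above all control libraries while DOX overlapped with both. The ratio of Notch3 to Notch1 was 1.59, 1.71 and 1.71 in control hearts, 1.28, 1.46 and 2.02 in DOX and 1.77, 1.96 and 2.01 in TPTN. Here too TPTN lay above control and DOX spanned both. The ratio of Dll4 to Jag1, 2 ligands that can act against each other on sprouting endothelium, was 1.79, 1.89 and 2.15 in control hearts, 2.40, 2.11 and 2.65 in DOX and 2.23, 2.11 and 3.44 in TPTN, with overlap between all groups. These ratios were chosen with the levels known and were not tested.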
